A study of Mus musculus with 6 samples.

Results

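The 39 Hox genes of the mouse encode homeodomain transcription factors and lie in 4 clusters, HoxA to HoxD. They were taken from the deposited expression table by gene name (Hox, a cluster letter and a paralogue number). The table listed 38 of the 39 among its 29595 genes, and Hoxd12 was not analysed here. The libraries came from TKPTS cells, an established line of mouse kidney proximal tubule cells. Cells of the Hnf3a group (3 libraries) had received the plasmid pcDNA3.1-Hnf3a-Flag, which carries Flag-tagged HNF3α (gene symbol Foxa1), and cells of the pcDNA group (3 libraries) the plasmid pcDNA3.1-Flag without that insert. Both groups had thus been transfected, and both were harvested 24 h later without another treatment. The labels give a single cell line and do not say whether the replicates were separate cultures, so p-values measure only the spread between these samples, which may be technical.

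Along a Hox cluster, genes at one end (low paralogue numbers) are switched on early and toward the head of the embryo, and genes at the other end (high numbers) late and toward the tail. Genes at the same place in different clusters are paralogues of each other. Adult cells often keep a record of the position at which they arose in the set of Hox genes they transcribe. In the kidney, Hoxb7 is known from the nephric duct and the ureteric bud, and Hoxa11, Hoxc11 and Hoxd11 act together in the mesenchyme that forms the nephrons. HNF3α is a forkhead factor that can bind closed chromatin. The comparison asked whether raising it for 24 h altered this positional code.

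The total estimated count ranged from 60473818 to 71154667 per library, and 17824 genes had enough counts to be tested. Foxa1 stood at 334, 296 and 284 FPKM (fragments per kilobase of transcript, scaled to library size) in Hnf3a replicates 1, 2 and 3, and at 9.49, 9.54 and 9.96 FPKM in pcDNA replicates 1, 2 and 3, which is the direction the labels give. Epithelial markers were high in every library (Cdh1, 106 to 116 FPKM; Epcam, 102 to 106 FPKM) and so was the renal factor Pax8 (27.5 to 31.4 FPKM), while the apical receptors of the mature proximal tubule, Lrp2 and Cubn, stayed at or under 0.0534 FPKM. Hnf3a replicates 2 and 3 stood apart in genes of other cell types. Of 11 fibroblast and mesenchyme genes, 5, 11 and 11 were above the detection floor in Hnf3a replicates 1, 2 and 3, and 2, 4 and 3 in the pcDNA libraries, with summed counts of 209, 4782 and 5502 against 99, 149 and 163. Macrophage genes summed to 1810, 2532 and 2518 against 1772, 1712 and 1673 counts, and skeletal muscle genes to 156, 592 and 630 against 202, 146 and 161. The detection floor is 12 counts, taken as about 3 sequenced fragments.

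The 4 clusters were not equally active. In mm10 (GRCm38) coordinates, HoxA occupies chromosome 6 from 52155590 to 52260880, HoxB chromosome 11 from 96194316 to 96368256, HoxC chromosome 15 from 102921103 to 103036852 and HoxD chromosome 2 from 74668310 to 74765142. HoxA reads from the minus strand and the others from the plus strand. Summed over its 10 genes, HoxB reached 292, 296 and 304 FPKM in Hnf3a replicates 1, 2 and 3, and 282, 285 and 288 FPKM in pcDNA replicates 1, 2 and 3. It held between 84.3% and 85.9% of the FPKM of all Hox genes in every library. The 11 HoxA genes held between 5.95% and 7.11%, the 9 HoxC genes between 6.25% and 6.78%, and the 8 HoxD genes between 1.66% and 1.99%.

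By paralogue number, the posterior groups 9 to 13 held between 50.3% and 52.5% of the Hox FPKM of a library, the central groups 4 to 8 between 38.8% and 40.2%, and the anterior groups 1 to 3 between 8.47% and 9.55%. A posterior gene, Hoxb9, accounted for most of the first share. The ladder of levels within each cluster is drawn in the plot of FPKM by paralogue number and in the grid of mean levels.

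**Figure D1:**
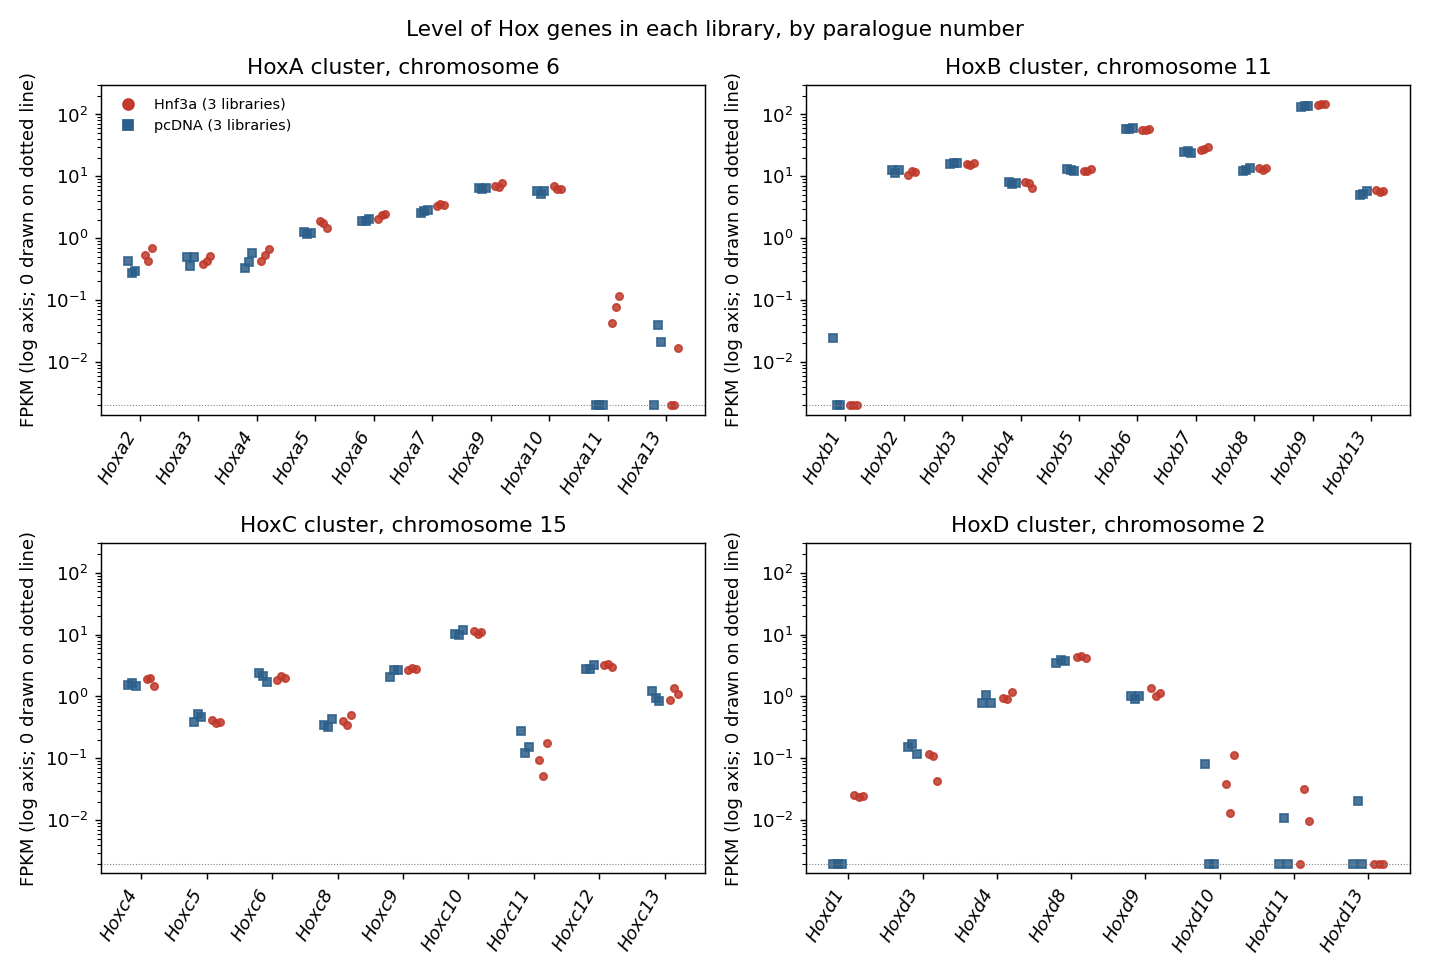
FPKM of 37 Hox genes in each library (log axis, values of 0 drawn on the dotted line), in 1 panel per cluster with paralogue numbers rising to the right. Circles are the 3 Hnf3a and squares the 3 pcDNA libraries, in replicate order from left to right. The 2 groups lie close together for nearly every gene, and HoxB genes 2 to 9 together with Hoxc10 have the highest means.

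In HoxB the genes from Hoxb2 to Hoxb9 were all transcribed, between a mean of 7.62 FPKM for Hoxb4 and 140 FPKM for Hoxb9. Hoxb1, the hindbrain gene at the 3′ end of the cluster, had 4 counts in pcDNA replicate 1 and 0 in the other libraries. Hoxb13, which lies apart at the other end and is best known from the prostate and the tail bud, stood at 5.01 to 6.01 FPKM. In HoxA the mean level climbed along the cluster, from 0.441 FPKM for Hoxa2, 0.448 for Hoxa3 and 0.491 for Hoxa4, through 1.48 for Hoxa5, 2.13 for Hoxa6 and 3.09 for Hoxa7, to 6.79 for Hoxa9 and 6.08 for Hoxa10. The ranges over libraries overlapped between neighbours from Hoxa2 to Hoxa4, from Hoxa5 to Hoxa6 and from Hoxa9 to Hoxa10. The next gene, Hoxa11, lay outside this climb with a mean of 0.0391 FPKM.

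HoxC reached its highest level at Hoxc10 (mean 10.8 FPKM) and had a gap at Hoxc11 (mean 0.146 FPKM). Hoxc12 on the far side of that gap stood at 2.77 to 3.4 FPKM in the 6 libraries and was between 10.2 and 64.5 times as high as Hoxc11. The ratio is imprecise, since Hoxc11 had only 9 to 38 counts per library. In HoxD, Hoxd4 (mean 0.941 FPKM), Hoxd8 (4.03 FPKM) and Hoxd9 (1.08 FPKM) carried nearly all of the signal. The genes at both ends, Hoxd1, Hoxd10, Hoxd11 and Hoxd13, each had a mean under 0.05 FPKM. Hoxd3 and Hoxd4 share 62.3% and 52.3% of their exon bases with each other or with Gm28230 on the same strand, so the division of their reads is uncertain.

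Ranked over all Hox genes, 2 (Hoxb9 and Hoxb6) had a mean over 50 FPKM, 6 lay between 10 and 50, 15 between 1 and 10, 6 between 0.2 and 1, and 9 under 0.2. Hoxb9 was gene 291 of the whole table by mean FPKM, at the 99.0th percentile. The order Hoxb9, Hoxb6, Hoxb7, Hoxb3, Hoxb8 held with no overlap between neighbours over the 6 libraries. From Hoxb8 through Hoxb5 and Hoxb2 to Hoxc10, each overlapped the next in order, and so did most neighbours further down. The clear steps were those from Hoxc10 to Hoxb4, from Hoxb13 to Hoxd8, from Hoxd4 to Hoxa4 and from Hoxc8 to Hoxc11.

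Within paralogue groups the same cluster led nearly everywhere. The HoxB member was the highest in groups 2 to 9 and 13 in 6 of 6 libraries. Hoxc10 led group 10 in 6 of 6 libraries, at 1.64 to 2.05 times the level of Hoxa10. Group 11 was the lowest of the groups, at 0.194 FPKM summed over Hoxa11, Hoxc11 and Hoxd11, and Hoxc11 led it in 5 of 6 libraries.

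Group 9 carried the most RNA of the 13 groups, and its members differed widely. Hoxb9 was 19.1 to 21.9 times as high as Hoxa9, and the order Hoxb9, Hoxa9, Hoxc9, Hoxd9 held in 6 of 6 libraries. The DNA that encodes the homeodomain, the homeobox, is printed here for Hoxb9 and Hoxc9, the pair of paralogues with the longest shared run, to show how alike the transcripts are that the reads had to tell apart. Each is read 5′ to 3′ on the coding strand from the mm10 genome with GENCODE vM21 gene models and lies in the last exon of its gene (exon 2 of 2 in Hoxb9 and exon 3 of 3 in Hoxc9). Capitals in Hoxc9 mark the bases that differ from Hoxb9. The windows are chr11:96274659-96274838 and chr15:102983930-102984109, both on the plus strand.
Hoxb9: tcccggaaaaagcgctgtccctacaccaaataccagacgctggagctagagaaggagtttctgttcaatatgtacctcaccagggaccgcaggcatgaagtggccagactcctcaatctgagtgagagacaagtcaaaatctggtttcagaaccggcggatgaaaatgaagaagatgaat
Hoxc9: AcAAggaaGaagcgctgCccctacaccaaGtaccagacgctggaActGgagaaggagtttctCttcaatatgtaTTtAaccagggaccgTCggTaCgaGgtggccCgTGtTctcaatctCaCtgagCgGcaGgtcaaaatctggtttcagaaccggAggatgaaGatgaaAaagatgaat
Of the 180 bases, 29 differ (83.9% identity). The longest run shared by the 2 printed stretches is 24 bases, so the longest run of the whole transcripts does not lie within them. Over all pairs of Hox homeoboxes, the median identity was 80.6% within a paralogue group (42 pairs), 61.7% within a cluster (172 pairs) and 60.6% for the other 527 pairs. The longest exact run shared by 2 paralogous transcripts was 50 bases (Hoxb9 and Hoxc9), and the median over the 42 pairs was 17 bases, each shorter than 1 read of 150 bases.

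Against this background the comparison of Hnf3a with pcDNA gave no Hox gene past edgeR's threshold. Of the 38 genes, 31 passed the filter and were tested, and 30 were above the floor in all 6 libraries. With edgeR's quasi-likelihood test and Benjamini-Hochberg adjustment over all genes, 0 of 31 Hox genes had an adjusted p under 0.05, where 3.17% of all tested genes did (1.04% higher and 2.13% lower). At an unadjusted p under 0.05 there were 8 Hox genes, all higher in the Hnf3a group (6.55% of all genes tested were in that class). DESeq2 called 3 Hox genes (Hoxb7, Hoxb9 and Hoxa7, all higher; 4.59% of all genes) and limma on log2(FPKM + 0.1) called 0 (1.32% of all genes). The libraries of the groups did not overlap in CPM (counts scaled to library size by TMM) for 10 of 31 Hox genes, all higher in Hnf3a, where 9.12% of all genes did so in that direction and 9.81% in the other.

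The differences were small. Over the 31 genes the median log2 fold change was 0.15 and the median size 0.18, against 0.00085 and 0.088 over all tested genes. Without Hnf3a replicates 2 and 3, the libraries with the fibroblast and macrophage transcripts, the Hox median was 0.1, on 1 Hnf3a library. The fitted value was above 0 for 21 of 31 Hox genes and for 50.2% of all genes. Precision followed depth. The 11 genes with over 1000 counts had standard errors between 0.03 and 0.078 on the log2 scale, 6 of them with values above 0 and 5 below, and a median of 0.024. The 20 genes with fewer counts had a median of 0.19, with 15 above 0 and 5 below, and the 6 of them with at most 100 counts had standard errors between 0.22 and 0.54. The 11 genes were Hoxb2 to Hoxb9, with log2 fold changes between -0.089 and 0.18, and Hoxa9, Hoxa10 and Hoxc10, at 0.17, 0.2 and 0.024. The split by depth was thus largely also a split by cluster, and the part of each was not tested.

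**Figure D2:**
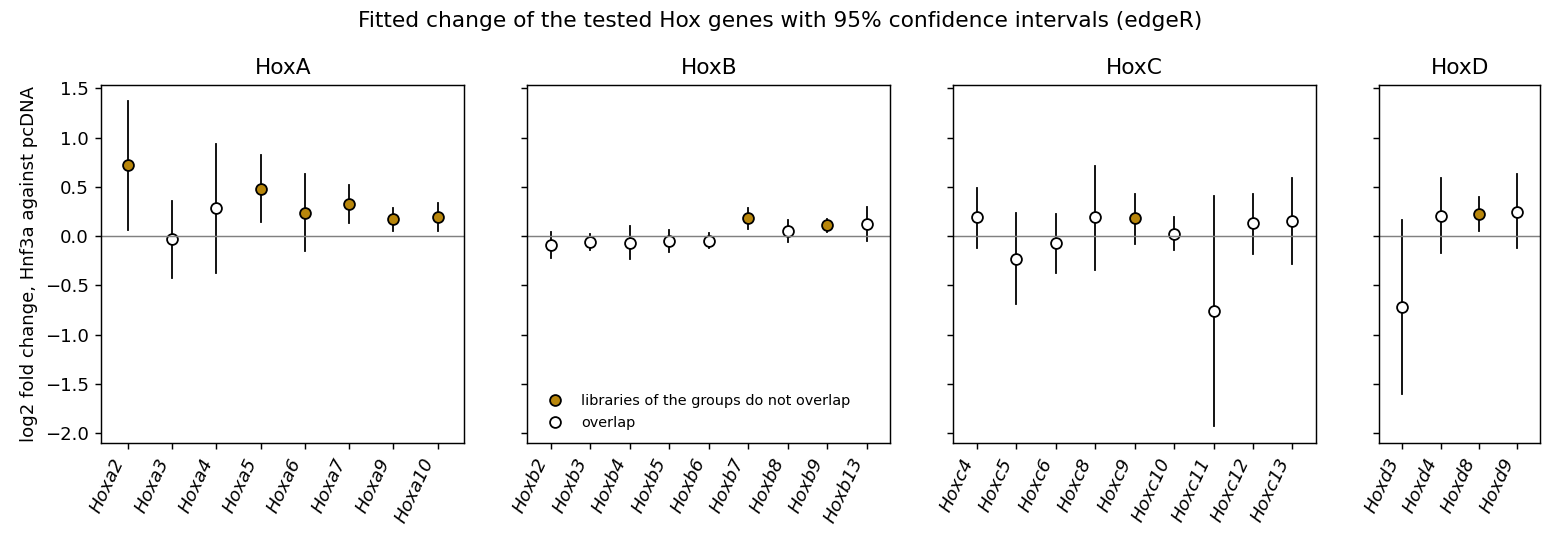
Fitted log2 fold change (Hnf3a against pcDNA, edgeR) of 30 of the 31 tested Hox genes with 95% confidence intervals, by cluster and paralogue number. Filled points mark the 10 genes whose 3 Hnf3a and 3 pcDNA libraries do not overlap, 6 of them in HoxA, and 0 of 31 passed the adjusted threshold of 0.05.

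In HoxB, the most active cluster, fitted values were below 0 at the lower paralogue numbers and above 0 at the higher ones. The 95% intervals of all tested HoxB genes but Hoxb7 and Hoxb9 spanned 0, so this order of signs is uncertain. Hoxb2, Hoxb3, Hoxb4, Hoxb5 and Hoxb6 had log2 fold changes between -0.089 and -0.047, and Hoxb7, Hoxb8, Hoxb9 and Hoxb13 between 0.051 and 0.18. Its median over 9 tested genes was -0.047. Hoxb9 (chromosome 11, 96271457 to 96276595) stood at 142, 146 and 149 FPKM in Hnf3a replicates 1, 2 and 3, and at 131, 136 and 136 FPKM in pcDNA replicates 1, 2 and 3. Each Hnf3a library was above each pcDNA library, by a log2 fold change of 0.11 (SE 0.03, 95% interval 0.042 to 0.17, edgeR adjusted p 0.0827). Hoxb7 (96286623 to 96290162), whose promoter is used to drive transgenes in the ureteric bud, stood at 26.9, 27.9 and 29.5 FPKM against 24.3, 25.4 and 24.2 FPKM. The groups did not overlap, and the log2 fold change was 0.18 (SE 0.049, 95% interval 0.076 to 0.29, edgeR adjusted p 0.0685).

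The calls of both genes depended on the test and the filter, and that of Hoxb7 also on the libraries. DESeq2 gave adjusted p-values of 0.0127 for Hoxb9 and 0.0303 for Hoxb7, and edgeR on genes with at least 1 FPKM in 3 libraries gave 0.0456 and 0.0427. Without 1 library at a time, the edgeR adjusted p of Hoxb7 was 0.0474 without Hnf3a replicate 1 and between 0.13 and 0.227 without each of the others. Without Hnf3a replicates 2 and 3 together, an alternative added after the data were seen that rests on 1 Hnf3a library, Hoxb9 had a log2 fold change of 0.083 (edgeR adjusted p 0.338) and Hoxb7 of 0.13 (edgeR adjusted p 0.4).

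The groups overlapped for the other tested HoxB genes, on either side of Hoxb7. Hoxb6 (96292476 to 96301569), a trunk gene also expressed in blood progenitors, stood at 56.6, 56.2 and 58.8 FPKM against 59.3, 57.4 and 59.5 FPKM. The ranges overlapped, with a log2 fold change of -0.047 (95% interval -0.12 to 0.028). The ratio of Hoxb6 to its neighbour Hoxb7 in FPKM came to 2.1, 2.02 and 1.99 in the Hnf3a group against 2.44, 2.26 and 2.46 in the pcDNA group, in ranges that did not overlap. This ratio reuses the Hoxb7 values given above, so its gap is not a separate result. The ratio of Hoxb9 to Hoxb8 was 10.5, 11.2 and 10.8 against 10.5, 10.6 and 10.2, in overlapping ranges.

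Hoxb3 (96323326 to 96347930), a patterning gene of the hindbrain, stood at 15.6, 15.4 and 16.3 FPKM against 16.1, 16.5 and 16.3 FPKM, with a log2 fold change of -0.055 (95% interval -0.14 to 0.027). Of its exon bases, 52.9% are covered on the opposite strand by Hoxb3os. This non-coding gene swung between 161 and 436 counts over the libraries while Hoxb3 stayed between 4625 and 5176. Hoxb8 (96281905 to 96285315), whose loss in mice causes compulsive grooming, stood at 13.6, 12.9 and 13.8 FPKM against 12.4, 12.9 and 13.4 FPKM, with an interval of -0.059 to 0.16. Hoxb5 (96303336 to 96306121), a regulator of enteric neural crest, stood at 12.2, 12.1 and 13 FPKM against 13.1, 12.9 and 12.4 FPKM, with an interval of -0.16 to 0.059. For all of these the intervals span 0 and leave room for differences of at most 0.16 on the log2 scale in either direction.

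HoxA held most of the separated genes. Of its 9 tested genes, 8 had a fitted value above 0, the libraries of 6 did not overlap, and the median log2 fold change was 0.237. The cluster summed to 24.6, 24 and 25.3 FPKM in the Hnf3a group against 20.7, 19.8 and 21.6 FPKM in the pcDNA group. The sums of the groups did not overlap, as was also so for HoxB, HoxD and all Hox genes together, and not for HoxC. These sums follow their highest genes and are not separate results. Mean sums were 297 against 285 FPKM for HoxB and 351 against 333 FPKM for all Hox genes, where Hoxb9 alone had 145 against 134 FPKM. The posterior genes, chiefly Hoxa9 and Hoxa10, made up 11.5 to 14.2 FPKM of the HoxA sum.

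Hoxa9 (chromosome 6, 52223100 to 52231089), a factor of blood progenitors that is activated in leukaemia, stood at 7.05, 6.80 and 7.77 FPKM against 6.53, 6.21 and 6.38 FPKM. The lowest Hnf3a library lay just above the highest pcDNA library, and the log2 fold change was 0.17 (SE 0.056, edgeR adjusted p 0.158). Hoxa10 (52231197 to 52240795), which patterns the uterus and the lumbar spine, stood at 6.90, 6.30 and 6.34 FPKM against 5.79, 5.28 and 5.85 FPKM. These ranges did not overlap, and the log2 fold change was 0.20 (SE 0.067, edgeR adjusted p 0.177).

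Hoxa7 (52214491 to 52221854), a trunk patterning gene, stood at 3.34, 3.59 and 3.4 FPKM against 2.54, 2.75 and 2.89 FPKM. It had a log2 fold change of 0.33 (SE 0.091, edgeR adjusted p 0.0789), and DESeq2 gave an adjusted p of 0.0437. Of its exon bases, 20.4% are covered on the opposite strand by Hoxaas3, which had 85, 52 and 82 counts against 65, 65 and 82. Hoxa5 (52201754 to 52204587), which is needed for the lung and respiratory tract, stood at 1.93, 1.78 and 1.49 FPKM against 1.28, 1.19 and 1.22 FPKM. The log2 fold change of Hoxa5 was 0.48 (SE 0.16, edgeR adjusted p 0.151), with its highest value in Hnf3a replicate 1.

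Hoxa6 (52206288 to 52208722) stood at 2.05, 2.41 and 2.49 FPKM against 1.91, 1.9 and 2.05 FPKM. Its groups touched in FPKM and were separate in CPM, and the log2 fold change was 0.24 (SE 0.18, edgeR adjusted p 0.656). Hoxa2 (52162417 to 52164831), the selector gene of the second pharyngeal arch, was weakly transcribed, with 69, 61 and 90 counts against 51, 36 and 39. It had a log2 fold change of 0.72 (SE 0.3, 95% interval 0.068 to 1.37, edgeR adjusted p 0.303), and 15.0% of its exon bases are shared with Gm28308 on the same strand. Hoxa3 and Hoxa4 had overlapping groups and log2 fold changes of -0.027 and 0.29.

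**Figure D3:**
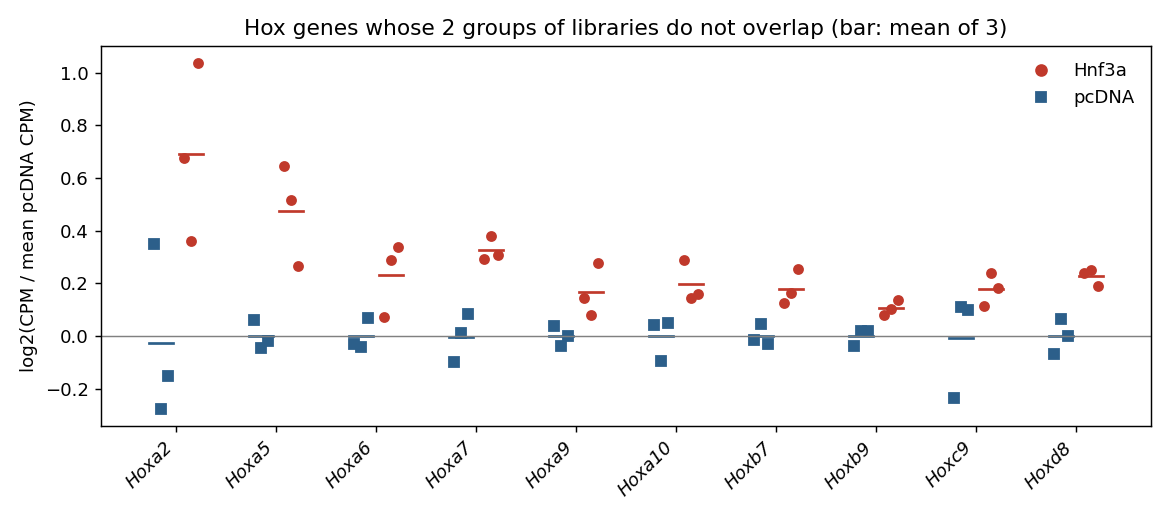
Each library of the 10 Hox genes whose groups do not overlap, as log2 of its CPM over the mean pcDNA CPM of that gene (circles: Hnf3a, squares: pcDNA, bars: mean of 3). The gap between the groups is wide for Hoxa5, Hoxa7 and Hoxd8 and narrow for Hoxa2, Hoxa6, Hoxa9 and Hoxc9.

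In HoxC, 6 of 9 tested genes had a fitted value above 0, with a median of 0.126, and the libraries of 1 did not overlap. Hoxc10 (chromosome 15, 102966796 to 102971893), which is expressed in the motor neurons of the hindlimb region, stood at 11.3, 10.4 and 11 FPKM against 10.1, 9.87 and 12 FPKM. The highest and the lowest values both belonged to pcDNA libraries, and the log2 fold change was 0.024 (95% interval -0.14 to 0.19). Hoxc9 (102976439 to 102985099), a factor of thoracic motor neurons, stood at 2.66, 2.92 and 2.80 FPKM against 2.08, 2.65 and 2.63 FPKM, with a log2 fold change of 0.18 (SE 0.12, edgeR adjusted p 0.589). The closest libraries of the groups, Hnf3a replicate 1 and pcDNA replicate 2, were nearly level. Hoxc11 had 14, 9 and 27 counts against 38, 19 and 23, and a log2 fold change of -0.76 with an interval from -1.93 to 0.41.

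In HoxD, 3 of 4 tested genes had a fitted value above 0, with a median of 0.218. Hoxd8 (chromosome 2, 74704615 to 74707933), a trunk gene and the highest of its cluster, stood at 4.37, 4.45 and 4.25 FPKM against 3.52, 3.88 and 3.71 FPKM. The groups did not overlap, and the log2 fold change was 0.23 (SE 0.08, 95% interval 0.053 to 0.40, edgeR adjusted p 0.2). Hoxd3, at 38, 37 and 14 counts against 45, 55 and 38, had the value furthest below 0 after Hoxc11, a log2 fold change of -0.72 with an interval from -1.60 to 0.16.

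The 7 genes that were not tested were near silent, and the most counted of them was Hoxa11 (chromosome 6, 52242106 to 52245810), one of the genes needed to induce the metanephric kidney. It had 8, 14 and 20 counts in the Hnf3a group against 0, 0 and 0. It was above the floor in Hnf3a replicates 2 and 3 only. The Hnf3a mean was at least 1.11-fold higher than the floor that a count of 0 allows. A gene at 0 in 1 group can enter a test only through the other group, so no p is given for it.

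Hnf3a replicates 2 and 3, in which Hoxa11 passed the floor, were also those with 4782 and 5502 summed counts of fibroblast and mesenchyme genes, against 209 in Hnf3a replicate 1, and the part of these in the result was not tested. Of the exon bases of Hoxa11, 35.0% are shared with Hoxa11os on the opposite strand, which had 0, 8 and 11 counts against 0, 8 and 0. Whether the counting used strand is not given in the sources used here. Hoxd10 (chromosome 2, 74691924 to 74695105), a hindlimb patterning gene, had 6, 2 and 16 counts against 11, 0 and 0, so that 1 Hnf3a library passed the floor. Hoxd1, active in sensory neurons, had 4, 4 and 4 counts against 0, 0 and 0, which is about 1 fragment in each Hnf3a library. Hoxa13, Hoxb1, Hoxd11 and Hoxd13 had at most 11 counts in any library. In these bulk libraries, fewer cells that transcribe a gene and less RNA per cell cannot be told apart.

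Promoter sequence was read from RefSeq (GRCm38.p6), in windows from 250 bases before to 50 bases after each start. Windows were found for 21 of the 38 listed genes and for Hoxd12, 24 windows in all. No window was found for Hoxb9, Hoxb6 or Hoxb7, the Hox genes with the highest means, so the promoter values do not cover them. Hox promoters held more CG than others, with a median observed-over-expected CpG of 0.626 against 0.384 over 32851 windows. The windows of genes with a mean over 1 FPKM had a median of 0.593 (11 windows) and those of genes up to 1 FPKM 0.77 (12 windows), in overlapping ranges. Forkhead factors prefer TGTTTAC, and the close forms TATTTAC with A second and TGTTTGC with G sixth were also searched, on both strands. At least 1 of the 3 was present in 2 of 24 Hox windows (8.33%), those of Hoxa2 and Hoxd1, and in 11.2% of all windows. A match is a description of the letters in the window and not a binding site.

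The 250 bases before the start are shown for Hoxa2, the tested gene with such letters, and for an active and a near-silent gene as examples, Hoxb8 and Hoxd10. They are chr6:52164832-52165081 on the minus strand, chr11:96281655-96281904 on the plus strand and chr2:74691641-74691890 on the plus strand. Capitals mark the forkhead letters in Hoxa2 and each CG in the other 2.
Hoxa2: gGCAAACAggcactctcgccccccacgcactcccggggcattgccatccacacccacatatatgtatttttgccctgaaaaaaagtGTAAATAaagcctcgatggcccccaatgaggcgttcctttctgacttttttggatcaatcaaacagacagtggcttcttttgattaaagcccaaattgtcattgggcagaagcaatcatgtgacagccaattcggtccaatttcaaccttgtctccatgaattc
Hoxb8: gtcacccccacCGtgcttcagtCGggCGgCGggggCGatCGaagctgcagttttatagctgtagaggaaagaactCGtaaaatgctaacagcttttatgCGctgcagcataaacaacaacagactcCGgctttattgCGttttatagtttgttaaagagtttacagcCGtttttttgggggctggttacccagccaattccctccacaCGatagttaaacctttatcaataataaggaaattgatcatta
Hoxd10: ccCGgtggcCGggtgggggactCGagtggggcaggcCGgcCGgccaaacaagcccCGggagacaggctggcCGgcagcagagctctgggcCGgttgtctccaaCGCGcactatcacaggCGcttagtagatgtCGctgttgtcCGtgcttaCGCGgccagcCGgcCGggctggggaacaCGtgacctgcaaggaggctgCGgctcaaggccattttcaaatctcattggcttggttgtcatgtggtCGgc
The matches in Hoxa2 begin 249 and 164 bases before the start. Hoxb8, at a mean of 13.2 FPKM, has 12 CG pairs in the stretch shown, and Hoxd10, at a mean of 0.0414 FPKM, has 20.

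Genes of the Pbx, Meis, Pknox and Tgif families were looked at next, of which Pbx and Meis proteins bind DNA next to Hox proteins. Of the 11 genes, 10 were tested, 0 passed edgeR's or DESeq2's adjusted threshold, and 0 had an unadjusted edgeR p under 0.05. Their log2 fold changes lay between -0.09 and 0.18 with a median of 0.024. Among the highest were the repressor Tgif1 (21.3 FPKM), Pbx2 (8.58 FPKM) and Pknox1 (3.07 FPKM).

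Of 33 chromatin regulators that keep Hox clusters silent or active, 0 passed edgeR's or DESeq2's adjusted threshold and 2 had an unadjusted edgeR p under 0.05, where 13.5% of all tested genes did. The 16 Polycomb genes, which hold clusters silent, had a median log2 fold change of 0.032. The 13 trithorax and related genes, which keep them active, had a median of 0.0033, and 4 genes of looping factors a median of 0.029. The highest were Rad21 (119 FPKM) of the cohesin ring, Suz12 (56.0 FPKM) of Polycomb complex PRC2, Psip1 (36.1 FPKM) and Wdr5 (28.6 FPKM).

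Genes of the upstream signals, chiefly retinoic acid, which switches on anterior Hox genes, numbered 27, of which 23 were listed, 21 were tested and 0 passed edgeR's adjusted threshold. Cdx1, Cdx4, Evx1 and Evx2 were not analysed here. An unadjusted edgeR p under 0.05 was found for 4 of 21 (Aldh1a3, Rxra, Egr2 and Aldh1a1), near the 13.5% of all genes, and DESeq2 called 1, Aldh1a3. Aldh1a3, which makes retinoic acid, had 131, 123 and 90 counts against 53, 55 and 63, in groups that did not overlap, with a log2 fold change of 0.92 (SE 0.24, edgeR adjusted p 0.0545). Its relative Aldh1a1 went the other way, with 102, 127 and 117 counts against 217, 151 and 128. The log2 fold change of Aldh1a1 was -0.62 (SE 0.23, edgeR adjusted p 0.229), and that of Aldh1a2 was -0.066. Rxra and Egr2 had values of 0.2 and 1.34. The highest of the list were Gmnn (26.7 FPKM), Rdh10 (18.3 FPKM), Aldh1a2 (8.91 FPKM) and Rxrb (7.33 FPKM), each with an edgeR adjusted p of at least 0.598.

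Of 36 non-coding genes inside the clusters, 18 were tested, 0 passed the adjusted threshold of edgeR or DESeq2 and 0 had an unadjusted edgeR p under 0.05, with a median log2 fold change of 0.13. Several overlap Hox exons. Outside the clusters, the nearest protein-coding neighbours (24 chosen, 21 listed and tested) had a median of -0.0034, 0 passed the adjusted threshold of edgeR or DESeq2, and 2 of 21 had an unadjusted edgeR p under 0.05, against 13.5% of all genes. The 4 highest of them were Hnrnpa1 (362 FPKM), Atp5g3 (65.4 FPKM), Atp5g2 (52.6 FPKM) and Cbx1 (37.6 FPKM), with log2 fold changes of 0.058, 0.083, -0.048 and -0.04.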

How the data were processed

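Group and replicate number are those of the labels. Per these and the study's methods, polyadenylated RNA was made into dUTP libraries with unique molecular identifiers and read from both ends. The submitters' processing notes name cutadapt 1.9, HISAT2 2.0.4, UMI-tools, StringTie 1.3.4d, DESeq2, edgeR and mm10. The use of strand in counting is not given in the sources used here. The authors deposited an estimated count and an FPKM value per gene and library. The counts are whole numbers, and in each library 1148 to 1203 genes sat at exactly 4 counts against 661 to 694 at 3 and 368 to 400 at 5, so 1 fragment was taken as about 4 counts and the floor as 12 (0.169 to 0.198 CPM). Floors cover counting error only. Coordinates are those of the table, and 25765 of 29514 genes shared with GENCODE vM21 have the same ones there.

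Counts were filtered with filterByExpr, scaled by TMM and tested two-sided with edgeR 4.0.16 (glmQLFit, robust, no covariate) in R 4.3.3, with Benjamini-Hochberg adjustment over 17824 genes and a threshold of 0.05. Standard errors are the absolute log2 fold change over the square root of F. An exact permutation test of 3 against 3 cannot go below a p of 0.1 and was not used. FPKM served for levels. The procedure was tested on simulated data with set changes larger than the median Hox change. That test does not show whether smaller changes would be found. Alternatives were limma 3.58.1 with pseudocounts of 0.1, 1 and 0.01 on log2(FPKM + pseudocount), a scale that understates changes of low genes, DESeq2 1.42.0, other scalings and filters, counts divided by 4, the replicate number as a block, and leaving out each library. Per-library values are given for the 6 highest Hox genes, the highest of each cluster, those whose groups do not overlap and those above the floor in 1 group only. In other lists, called genes and the 4 highest were to be named. The Hox genes, the lists and the markers were chosen with earlier results of these data known. Values of other genes were named after they were seen. Some genes and sequences are not reported here.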

Additional observations from a re-analysis of the deposited data

How the results depend on the processing

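The number of Hox genes past the threshold was 0 in edgeR as reported and moved to 3 with DESeq2 (Hoxa7, Hoxb7 and Hoxb9), to 2 with genes of at least 1 FPKM in 3 libraries (Hoxb7 and Hoxb9) and to 1 with all genes of at least 1 count (Hoxa11). Leaving out 1 library at a time gave 0 to 2, the 2 (Hoxa11 and Hoxb7) without Hnf3a replicate 1. Hoxa11, at 0 counts in the pcDNA group, entered these fits only through the Hnf3a group, so its calls support nothing. It stayed at 0 with both other scalings, counts divided by 4, all 3 limma pseudocounts and without Hnf3a replicates 2 and 3, the last chosen after the data were seen. Over all genes the count of 565 became 236, 231 and 245 in limma with pseudocounts of 0.1, 1 and 0.01, 322 without Hnf3a replicates 2 and 3, and 263 to 643 without 1 library at a time (263 without Hnf3a replicate 2, 286, 267 and 349 without pcDNA replicates 1, 2 and 3). The upstream signal genes had 1 call (Aldh1a3) with DESeq2 and with counts divided by 4, and 0 to 1 without 1 library at a time. Aldh1a3 was called without Hnf3a replicate 3 and Egr2 without pcDNA replicate 3. The median Hox log2 fold change of 0.15 was 0.10 in limma with a pseudocount of 1, 0.10 without Hnf3a replicates 2 and 3, and 0.11 to 0.17 without 1 library at a time.

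The replicate numbers did not pair the libraries (r of same-numbered deviations from the group means -0.0411, -0.0102 and 0.00998). With the number as a replicate block, 463 genes and 0 Hox genes passed. Under the alternatives, 500 fits of single Hox genes kept their direction and side of the threshold, 6 crossed it and 12 changed sign, all of these at adjusted p-values over 0.05. Without 1 library at a time, Hoxa3 ranged from -0.17 to 0.064 (above 0 without Hnf3a replicate 1, pcDNA replicate 1 or pcDNA replicate 3), Hoxb4 from -0.13 to 0.017, Hoxc6 from -0.2 to 0.031, Hoxc10 from -0.027 to 0.12 and Hoxc13 from -0.014 to 0.33. Without Hnf3a replicates 2 and 3, Hoxa4 was at -0.07, Hoxb4 at 0.054 and Hoxc13 at -0.18. The cause of these changes was not tested. Hoxa5, Hoxa7, Hoxa9, Hoxa10, Hoxb7, Hoxb9 and Hoxd8 were above 0 in 18 of 18 fits, and Hoxb2, Hoxb3, Hoxb5 and Hoxb6 in 0 of 18. The fits reuse the same libraries, so these tallies are not separate evidence. For the named genes above 0 the groups do not overlap, and leaving out a library could hardly change the sign. Genes with overlapping groups, among them Hoxb8, Hoxb13 and Hoxc12, were also above 0 in 18 of 18 fits. At this depth, the 95% interval of Hox genes with at most 100 counts reached 0.47 to 1.2 on the log2 scale to either side, depending on the gene.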
